A study of Mus musculus with 4 samples.

Results

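The genes described here are 10 members of the BCL2 family, grouped apart from those listed as direct targets of p53. Whether p53 acts on any of the 10 was not tested. The 10 genes were selected by gene symbol, and all were found among the 18298 genes to which any sample had reads assigned. The 4 anti-apoptotic members were Bcl2, Bcl2l1 (BCL-XL), Bcl2l2 (BCL-W) and Mcl1. The 6 pro-apoptotic members were the effectors Bak1 and Bok and the BH3-only genes Bcl2l11 (BIM), Bid, Bad and Bmf. RNA was sequenced from primary rib chondrocytes, the cells that make cartilage, taken from E18.5 embryos on a C57BL/6 background and cultured to passage 1. The study compared 2 samples of the genotype Dermo1-Cre;Senp6f/f (Mut) with 2 samples of Senp6f/f (WT). Both genotypes carried the floxed Senp6 allele, and the WT samples carried no Cre, so loss of Senp6 and presence of Cre cannot be told apart. Dermo1-Cre is expressed from the Twist2 locus in mesenchymal progenitors and removes the floxed exons of Senp6, which encodes a SUMO protease. Whether the samples of a genotype came from separate embryos or pools is not given in the sources used here, so p values measure the spread between these samples only.

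BCL2 proteins decide whether the mitochondrial outer membrane stays closed. Anti-apoptotic members bind and hold the effectors, the effectors BAK and BAX open the membrane once they are set free, and BH3-only proteins neutralize the anti-apoptotic members or activate the effectors directly. In cartilage, BCL2 and BCL-XL are known as survival factors of growth plate chondrocytes, and BIM as a mediator of their death.

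In Mut chondrocytes the transcript of the survival factor Bcl2l1 was 1.54-fold that of WT, and the transcripts of the death inducers Bmf and Bcl2l11 were 0.427-fold and 0.635-fold those of WT. The values of Bmf and Bcl2l11 leaned on WT replicate 1. Their log2 fold changes were -1.23 and -0.65 from all 4 samples and -0.60 and -0.35 without that sample. Bid, which links death receptors to mitochondria, was higher in Mut, at 1.44-fold the WT level. Bak1, the more abundant effector among the members, was at 0.996-fold. Bax, an effector outside the members with an RPKM near or above that of Bak1, was higher in both Mut samples (1.26-fold, adjusted p = 0.345 in edgeR). Among BH3-only genes outside the members, Pmaip1, named after its value was seen, was higher too (log2 fold change 3.53, edgeR adjusted p = 0.0739), and the groups of Bbc3 overlapped. None of the 10 members had an adjusted p under 0.05 in the quasi-likelihood test of edgeR, where 0.0% of the 14123 genes tested were called in either direction. The smallest adjusted p of any gene in that test was 0.0512, just above the threshold. At an unadjusted p under 0.05 in the same test, 2 of 10 members were higher, beside 9.29% of all genes tested, and 2 of 10 were lower, beside 6.28% of all genes. In this bulk RNA, fewer cells of a type and less RNA per cell cannot be told apart. An exact permutation of 2 against 2 samples gives a p of 1 in 3 at best, too coarse to call any gene on its own.

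Between 2.1e+07 and 3.1e+07 reads were counted on genes in each sample. Senp6 had an RPKM (reads per kilobase of gene length, scaled to the reads counted in the sample) of 10.8 and 18.0 in WT replicates 1 and 2 and of 12.0 and 8.07 in Mut replicates 1 and 2, so the groups overlapped (log2 fold change -0.56, edgeR adjusted p = 0.410). Reads from exons outside the floxed part are counted too, and exon counts were not analysed here. Of 13 listed chondrocyte symbols 12 were found (Cnmd appears under its older symbol Lect1 and is not in the sum), with a summed RPKM of 1039 and 1008 in WT and 514 and 646 in Mut. Col2a1 made up most of that sum, with an RPKM of 609 and 659 in WT and 334 and 445 in Mut, while Matn1 had 2.71 and 1.82 in WT and 0.145 and 0.371 in Mut. All 12 were lower in both Mut samples than in both WT samples. Of 10 skeletal muscle markers, 7 were higher in both Mut samples, and their summed RPKM was 101 and 34.9 in WT and 179 and 197 in Mut. Of 8 osteoblast markers 5 were tested, and 4 of these were lower in both Mut samples, with a summed RPKM over the list of 497 and 551 in WT and 511 and 654 in Mut. Spp1, the only one of the 5 that was higher in both Mut samples, made up most of that sum, with an RPKM of 310.1 and 468 in WT and 479 and 600.4 in Mut, while Alpl had 90.1 and 45.7 in WT and 11.6 and 22.4 in Mut. Of 9 macrophage and blood symbols, of which Adgre1 and Emr1 name the same gene, 5 were tested, 4 of them lower in both Mut samples, and their summed RPKM was 18.9 and 17.6 in WT and 9.88 and 14.9 in Mut. The 3 tested epithelial markers of 6 listed were higher in both Mut samples, with a summed RPKM of 4.29 and 10.8 in WT and 21.5 and 27.5 in Mut. Endothelial markers summed to between 0.901 and 1.57 in each sample. Xist was read 11354 times in Mut replicate 2 and at most 5 times in the other samples, so Mut replicate 2 held female cells and the others few or none. Whether Mut replicate 2 also held male cells was not tested. The part of these differences in the results below was not tested.

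The anti-apoptotic arm was carried by Mcl1 and Bcl2l1 in all samples. Bcl2l1 encodes BCL-XL, which sits on the outer mitochondrial membrane and binds BAK, BAX and the BH3-only proteins. Its RPKM was 19.1 and 21.6 in WT replicates 1 and 2 and 29.1 and 35.4 in Mut replicates 1 and 2. Both Mut samples were above both WT samples, and the gap between the groups was wider than the gap within either of them. Its log2 fold change was 0.62 (95% interval 0.27 to 0.97, standard error 0.14, edgeR adjusted p = 0.123), which placed Bcl2l1 above 90.0% of all genes tested. With DESeq2 in place of edgeR the adjusted p was 0.0242, and DESeq2 called 3.07% of all genes higher and 1.86% lower.

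Mcl1 encodes a short-lived relative that holds BAK in many cell types. It had an RPKM of 24.2 and 26.1 in WT and of 28.2 and 31.7 in Mut. The groups did not overlap, but the difference was small, with a log2 fold change of 0.21 (95% interval -0.09 to 0.51, edgeR adjusted p = 0.494). Bcl2l1 was below Mcl1 in both WT samples, at 0.792 and 0.827 of its level, and above it in both Mut samples, at 1.03 and 1.12 of its level. Bcl2l1 thus held 35.5% and 36.9% of the summed anti-apoptotic RPKM in WT and 43.0% and 45.4% in Mut.

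Bcl2l2, the gene of BCL-W, was the steadiest of the anti-apoptotic members. Its RPKM was 9.57 and 9.61 in WT and 9.32 and 10.1 in Mut, with overlapping groups and a log2 fold change of -0.02 (95% interval -0.34 to 0.30, edgeR adjusted p = 0.956). Bcl2 itself, the founding member and a survival factor in lymphocytes, was the lowest of the 10 members in all samples. Its RPKM was 1.01 and 1.21 in WT and 1.13 and 0.801 in Mut, from 153 to 253 reads per sample, and it made up between 1.03% and 2.06% of the anti-apoptotic sum. The groups overlapped, and the log2 fold change of Bcl2 was -0.23 (95% interval -0.84 to 0.38, edgeR adjusted p = 0.722). Reads covered between 73.2% and 79.5% of the Bcl2 gene length, the lowest share of any member.

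**Figure D1:**
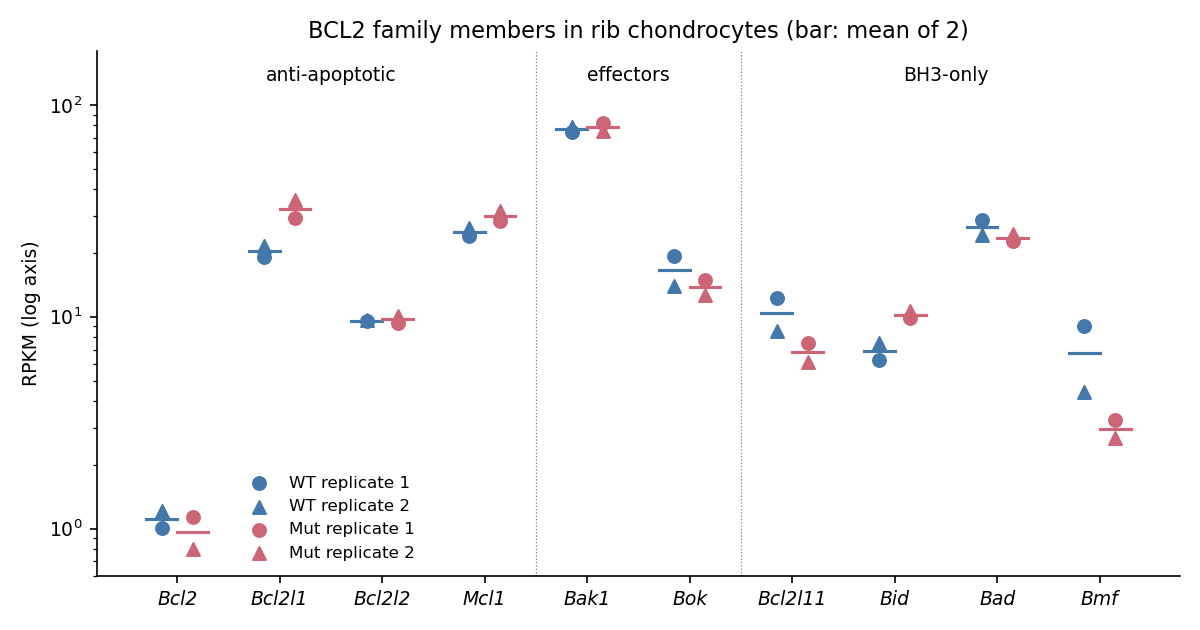
RPKM (log axis) of the 10 members in the 2 WT samples (blue) and the 2 Mut samples (red), with symbols for the replicate number and bars for the mean of each genotype. Bcl2l1 and Bid lay higher and Bcl2l11 and Bmf lower in both Mut samples, while Bak1 stayed between 74.4 and 81.9 in all 4.

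Of the effectors among the 10 members, Bak1 was the more abundant. Bak1 encodes BAK, which resides on the outer mitochondrial membrane and forms its pores. It was the most abundant member in every sample, with an RPKM of 74.4 and 78.9 in WT and 81.9 and 75.2 in Mut, between 35.8% and 40.2% of the summed RPKM of all 10. The groups overlapped. Bak1 had a log2 fold change of -0.01 (95% interval -0.31 to 0.30, edgeR adjusted p = 0.988). Bok encodes a relative of BAK and BAX found mainly at the endoplasmic reticulum. Its RPKM was 19.4 and 13.9 in WT and 14.9 and 12.7 in Mut. WT replicate 1 stood above the other 3 samples, and Mut replicate 1 lay above WT replicate 2. For Bok the log2 fold change was -0.32 (95% interval -0.83 to 0.20, edgeR adjusted p = 0.553) and it was -0.03 without WT replicate 1, so the value rested on that sample.

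The BH3-only genes had the lowest median log2 fold change of the roles, at -0.43, with values from -1.23 to 0.53. All 4 of them had groups that did not overlap on TMM-normalized CPM, beside 48.1% of all genes tested. Of these 4, 3 were lower in both Mut samples (Bad on this scale only) and 1, Bid, was higher. Bmf encodes a BH3-only protein that is bound to dynein light chain at the actin cytoskeleton and is released when cells lose attachment. Its RPKM was 9.02 and 4.43 in WT and 3.26 and 2.67 in Mut. Both Mut samples were below both WT samples, but WT replicate 1 was 2.04 times WT replicate 2, a wider gap than that between WT replicate 2 and either Mut sample. Bmf had a log2 fold change of -1.23 (95% interval -2.05 to -0.40, standard error 0.34, edgeR adjusted p = 0.169), and 1.64% of all genes tested had a lower value. DESeq2 gave an adjusted p of 0.0096 for Bmf. The log2 fold change was -0.60 without WT replicate 1 and -1.70 without WT replicate 2.

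Bcl2l11 encodes BIM, a BH3-only protein that binds all anti-apoptotic members and can be tethered to microtubules through dynein light chain. Its RPKM was 12.2 and 8.56 in WT and 7.49 and 6.11 in Mut. WT replicate 1 was again the highest, and WT replicate 2 lay closer to Mut replicate 1 than to WT replicate 1. The log2 fold change of Bcl2l11 was -0.65 (95% interval -1.19 to -0.12, standard error 0.22, edgeR adjusted p = 0.231), and DESeq2 gave an adjusted p of 0.104. In edgeR the value for Bcl2l11 was -0.35 without WT replicate 1 (adjusted p = 0.294) and -0.94 without WT replicate 2 (adjusted p = 0.00243). Together Bmf and Bcl2l11 made up 37.9% and 28.9% of the BH3-only RPKM in WT and 24.8% and 20.0% in Mut.

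Bid encodes a BH3-only protein that caspase-8 cleaves into its active form. Its RPKM was 6.24 and 7.53 in WT and 9.82 and 10.6 in Mut. Both Mut samples lay above both WT samples, and replicates were close together within each genotype. For Bid the log2 fold change was 0.53 (95% interval 0.13 to 0.93, standard error 0.17, edgeR adjusted p = 0.208), with a DESeq2 adjusted p of 0.242. Bid was below Bcl2l11 in both WT samples, at 0.511 and 0.879 of its level, and above it in both Mut samples, at 1.31 and 1.74 of its level.

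Bad encodes a BH3-only protein that growth factor signalling keeps inactive through phosphorylation and binding to 14-3-3 proteins. It was the most abundant BH3-only gene, at an RPKM of 28.6 and 24.4 in WT and 22.7 and 24.6 in Mut. On deposited RPKM the groups of Bad overlapped, since Mut replicate 2 lay just above WT replicate 2, whereas on TMM-normalized CPM both Mut samples were lower. Bad had a log2 fold change of -0.21 (95% interval -0.58 to 0.16, edgeR adjusted p = 0.579). The interval for Bad included differences in both directions, and the value was -0.06 without WT replicate 1 and -0.37 without WT replicate 2 (edgeR adjusted p = 0.0698).

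**Figure D2:**
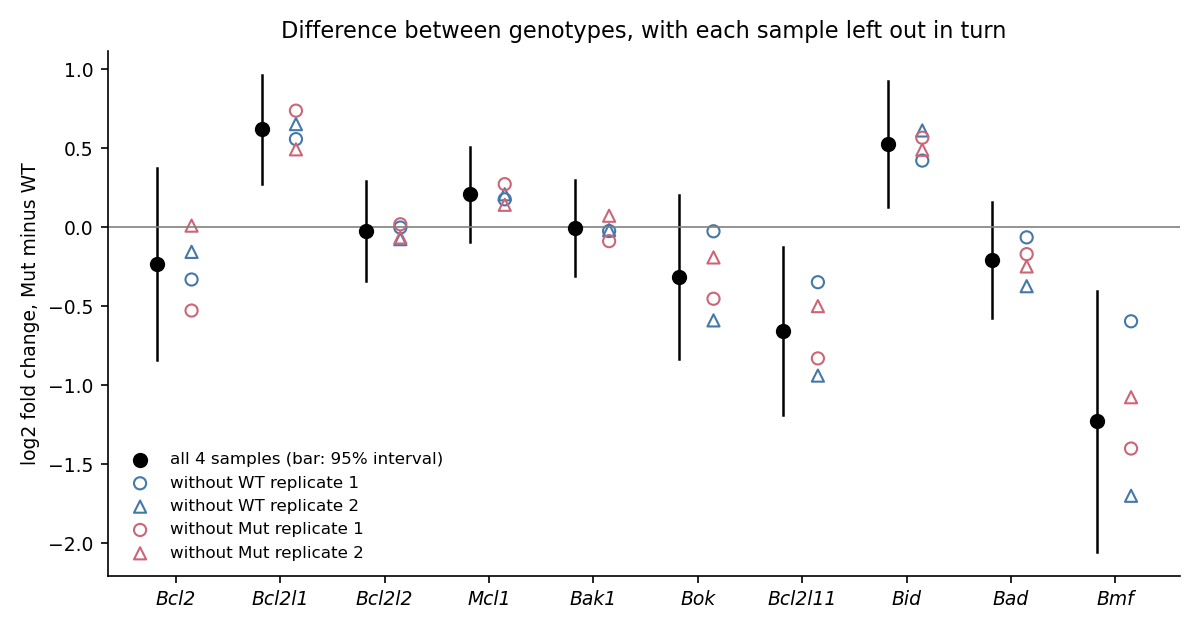
Log2 fold change of Mut minus WT for the 10 members. Black points and bars give the estimate and 95% interval of edgeR from all 4 samples, and open symbols the estimates with 1 sample left out. Bcl2l1 stayed between 0.49 and 0.74 and Bid between 0.42 and 0.61, whereas Bmf ran from -1.70 to -0.60 depending on the WT sample left out.

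The promoter windows shown are those of the 4 members with an unadjusted edgeR p under 0.05, a choice made after their values were seen. They span 250 bases before and 50 bases after an annotated transcript start, taken from RefSeq on GRCm38.p6 and written 5′ to 3′ along the gene, and capitals mark the motif matches. The window nearest to the start of the gene in GENCODE was used where a gene had several.
Bcl2l1 promoter (chr2:152831679-152831978, reverse strand): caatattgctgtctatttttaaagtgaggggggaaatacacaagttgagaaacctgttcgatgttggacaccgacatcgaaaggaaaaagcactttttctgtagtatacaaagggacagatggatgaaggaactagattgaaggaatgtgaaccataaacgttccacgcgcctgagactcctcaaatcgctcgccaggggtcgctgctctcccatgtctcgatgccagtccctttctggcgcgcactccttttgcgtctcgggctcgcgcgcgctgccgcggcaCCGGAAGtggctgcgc
Bcl2l11 promoter (chr2:128125788-128126087, forward strand): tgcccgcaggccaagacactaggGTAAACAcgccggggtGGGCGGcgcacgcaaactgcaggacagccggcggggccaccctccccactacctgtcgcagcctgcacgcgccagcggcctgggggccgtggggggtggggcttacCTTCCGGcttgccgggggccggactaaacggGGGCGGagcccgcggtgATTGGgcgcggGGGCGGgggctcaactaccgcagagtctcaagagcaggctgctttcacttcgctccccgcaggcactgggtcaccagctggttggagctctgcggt
Bmf promoter (chr2:118549637-118549936, reverse strand): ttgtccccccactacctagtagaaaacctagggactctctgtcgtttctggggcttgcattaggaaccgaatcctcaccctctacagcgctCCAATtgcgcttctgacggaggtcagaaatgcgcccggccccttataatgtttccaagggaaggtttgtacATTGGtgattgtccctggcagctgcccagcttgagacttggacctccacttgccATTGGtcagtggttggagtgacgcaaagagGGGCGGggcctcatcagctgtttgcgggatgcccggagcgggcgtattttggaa
Bid promoter (chr6:120916775-120917074, reverse strand): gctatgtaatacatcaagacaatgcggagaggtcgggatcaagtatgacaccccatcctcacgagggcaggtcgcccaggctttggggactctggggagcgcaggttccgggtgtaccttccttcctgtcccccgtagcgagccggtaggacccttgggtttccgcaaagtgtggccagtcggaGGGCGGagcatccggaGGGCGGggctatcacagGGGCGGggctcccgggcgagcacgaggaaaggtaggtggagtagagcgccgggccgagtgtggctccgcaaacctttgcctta
Each motif was searched on both strands, and matches of different motifs could overlap. FOXO factors are known activators of Bcl2l11, and the Bcl2l11 window held 1 match to the FOXO motif TGTTTAC, which began 227 bases upstream of the start and is read on the opposite strand. None of the windows nearest to the start of the other 9 members held it, and 3.65% of all 32851 windows did. The ETS motif CCGGAAG was present near the start of Bcl2l1, Bcl2l11 and Mcl1 and in 8.86% of all windows. In the window of Bcl2l1 it lay 34 bases downstream of the start. The GC box, searched as GGGCGG, was found near the start of 8 of the 10 members and in 35.7% of all windows, with 1 match in Bmf and 3 in Bid. The windows nearest to the start of the 10 members had a GC content of 52.3% to 76.0%, beside a median of 52.7% over all windows. The shares of GC-rich motifs were not matched for base composition. The CCAAT box was found near the start of Bcl2l11 and Bmf, with 3 matches in Bmf, and in 37.4% of all windows. The p53 half-site was in none of these 10 windows, was in 1 of the 16 windows that the members have in all (an internal start of Bmf), and was in 8.36% of all windows. The NF-κB site was in 2 of the 16 windows, at internal starts of Bcl2l1 and Bmf, and in 8.46% of all windows. The E-box (searched as CACGTG and held by 7.15% of all windows), the AP-1 site (searched as TGANTCA and held by 7.81%) and the TATA box (searched as TATAAA and held by 13.6%) were in none of the 16.

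On GRCm38 (GENCODE M21), Bcl2l1 lies on chromosome 2 from 152780668 to 152831728 and Bmf on the same chromosome from 118528757 to 118549687, both on the reverse strand. Bcl2l11 is on chromosome 2 as well, from 128126038 to 128162547 on the forward strand, and Bid is on chromosome 6 from 120891930 to 120916853 on the reverse strand. The submitters' processing notes name mm9, so these positions were used only to locate the genes. No exon of Bcl2l1, Bcl2l11, Bmf, Mcl1 or Bok overlapped an exon of another annotated gene. Exons of Bid shared 628 bases with Bcl2l13 on the opposite strand, and exons of Bad shared 524 bases with Gpr137. Whether reads were counted by strand is not given in the sources used here, so reads in such stretches cannot be assigned with certainty. Bcl2l13 itself had an RPKM between 7.84 and 8.15 in the 4 samples and a log2 fold change of -0.00 (edgeR adjusted p = 0.990). Bcl2l2 shared 594 bases with the gene model Gm20521 on the same strand, Bcl2 shared 558 bases with an antisense gene, and Bak1 shared bases with Ggnbp1 on the opposite strand.

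The balance of the arms was then compared within each sample on summed RPKM. The anti-apoptotic sum was 53.9 and 58.5 in WT and 67.8 and 78.0 in Mut. The BH3-only sum was 56.1 and 44.9 in WT and 43.3 and 44.0 in Mut, and the effector sum was 93.8 and 92.8 in WT and 96.8 and 87.9 in Mut. The anti-apoptotic sums were higher and the BH3-only sums slightly lower in both Mut samples, and the effector sums overlapped. The sums hold only the 10 members and leave out Bax, Bbc3 and Pmaip1. Bax, an effector outside the members, had an RPKM of 74.4 and 86.1 in WT and 93.5 and 114 in Mut. Pmaip1 was also higher in both Mut samples, and the groups of Bbc3 overlapped. Sums and ratios with these genes added were not computed. The ratio of anti-apoptotic to pro-apoptotic RPKM was 0.360 and 0.425 in WT and 0.484 and 0.591 in Mut, a difference of 0.45 between the mean log2 ratios of the genotypes, with a pooled SD of 0.19 within them. As these sums rest on members chosen with results known, they were not tested. Transcript sums also weigh each protein equally, whatever its stability or activity.

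Ratios of Bcl2l1, the member with the highest log2 fold change, were taken to Bcl2l11 and Bmf, those with the lowest. That choice by itself makes these ratios differ more between the genotypes than the summed ratio. Bid was higher in Mut by nearly as much as Bcl2l1 (log2 fold changes 0.53 and 0.62), so the pattern does not extend to Bid. Ratios to Bid and Bad were not computed. Bcl2l1 was 1.57 and 2.52 times Bcl2l11 in WT and 3.89 and 5.80 times in Mut. It was 2.12 and 4.88 times Bmf in WT and 8.94 and 13.3 times in Mut. In both ratios the Mut samples were above the WT samples, but the WT samples lay farther from each other in relative terms than WT replicate 2 lay from Mut replicate 1.

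**Figure D3:**
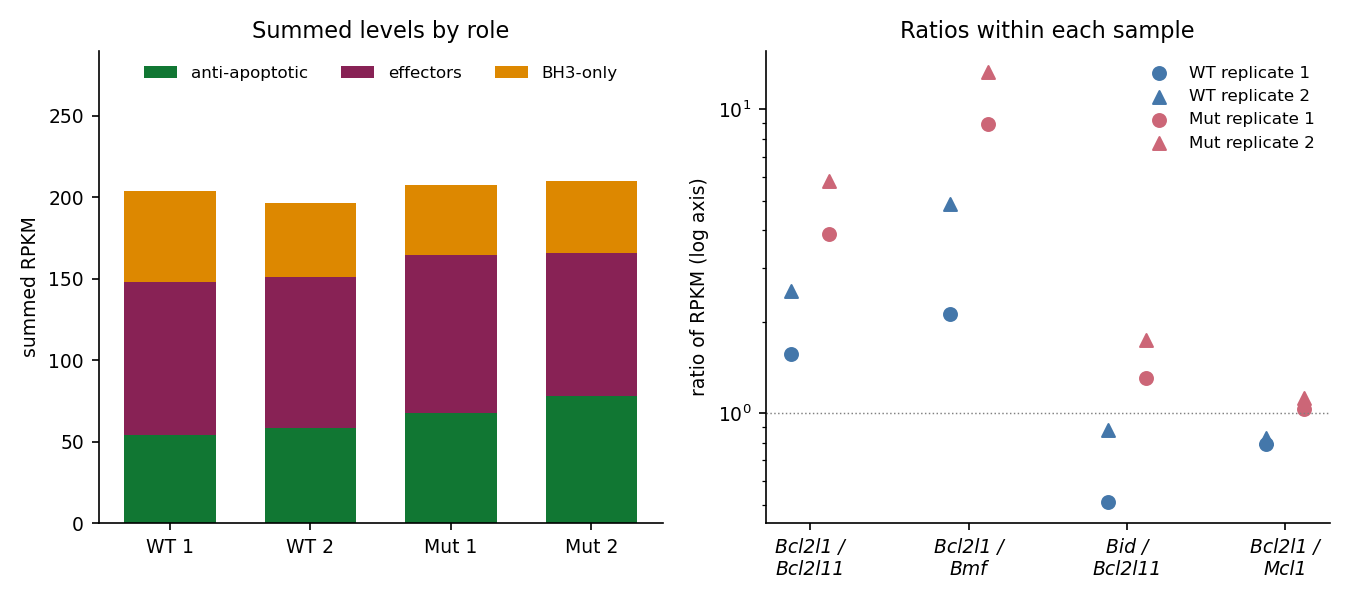
Left, summed RPKM of the anti-apoptotic, effector and BH3-only members in each sample, with totals between 196 and 210. Right, ratios of RPKM (log axis) in the WT (blue) and Mut (red) samples, where Bid over Bcl2l11 and Bcl2l1 over Mcl1 cross 1 between the genotypes.

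Across the 10 members, 3 were higher and 3 lower in both Mut samples on TMM-normalized CPM. The share without overlap, 6 of 10, stood beside 48.1% of all genes tested, of which 25.4% were higher and 22.8% lower, so the count of members was near the background. The median log2 fold change of the members was -0.12, beside 0.01 for all genes tested. By role it was 0.09 for the 4 anti-apoptotic and -0.26 for the 6 pro-apoptotic members. Without WT replicate 2, 5 members passed an adjusted p of 0.05 in edgeR (Bcl2l1, Bid, Bcl2l11, Bok and Bmf), where 9.42% of all genes were called higher and 10.6% lower. Without WT replicate 1, Bcl2l1 was the only member past it, where 3.72% and 1.06% of all genes were called. Each of these fits holds 1 WT sample, which is assumed to vary like the Mut pair. The calls of members, that of Bcl2l1 included, were lost in the fits that left out a Mut sample instead. There the log2 fold change of Bcl2l1 was 0.74 without Mut replicate 1 and 0.49 without Mut replicate 2. Which members passed thus depended on the sample left out. With the replicate number as a block, 0 members were called, where 0.595% of all genes were called higher and 0.234% lower.

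**Figure D4:**
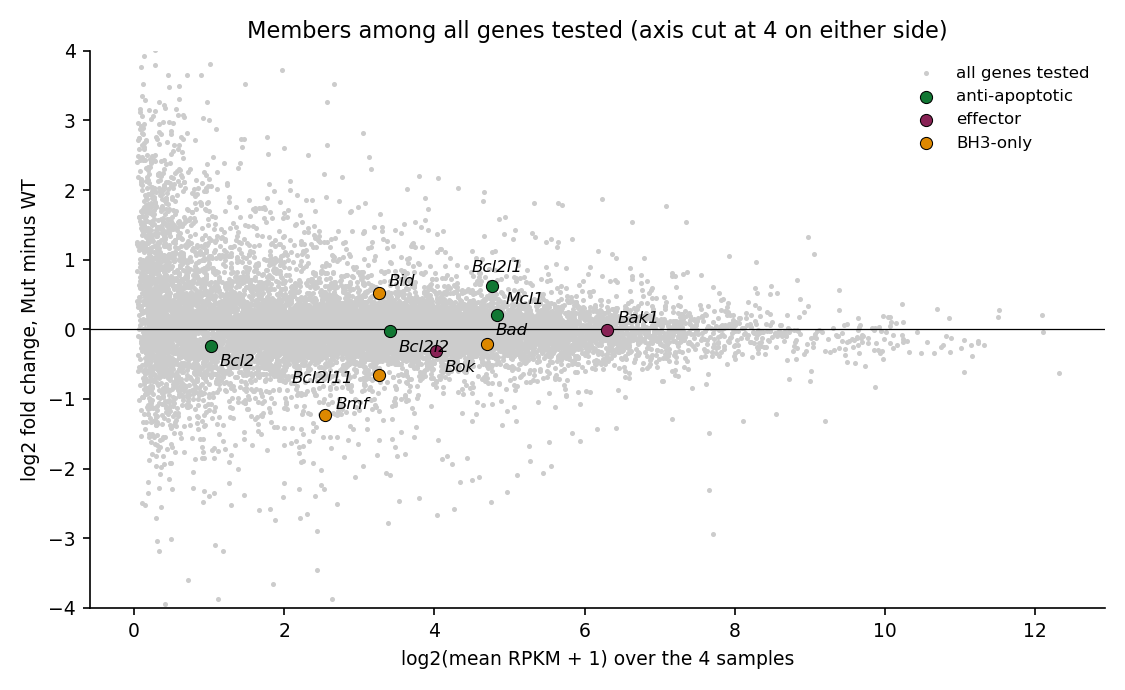
Log2 fold change of Mut minus WT against log2(mean RPKM + 1) over the 4 samples for the 14123 genes tested (grey) and the 10 members, coloured by role. Bmf lay toward the lower edge of the cloud, and Bak1 and Bcl2l2 lay close to 0. Genes beyond 4 in either direction are outside the axis.

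Other BCL2 relatives and partners of the members were read from lists written for the family. Of 16 relatives 8 were tested, and none had an adjusted p under 0.05 in edgeR. Bax, the effector that a p53 response can raise, had an RPKM of 74.4 and 86.1 in WT and 93.5 and 114 in Mut, with a log2 fold change of 0.33 (edgeR adjusted p = 0.345). The RPKM of Bax was 0.999 and 1.09 times that of Bak1 in WT and 1.14 and 1.52 times in Mut, and Mut replicate 1 lay close to WT replicate 2. Bbc3, which encodes PUMA, had overlapping groups, with 10.6 and 7.11 in WT and 7.92 and 8.67 in Mut (log2 fold change -0.14, edgeR adjusted p = 0.831). Pmaip1, which encodes NOXA, a BH3-only protein that binds MCL1, was named after its value was seen, as the only relative with an unadjusted p under 0.05. It had an RPKM of 0.179 and 0.360 in WT and 3.05 and 3.49 in Mut (log2 fold change 3.53, edgeR adjusted p = 0.0739), and it was the only one of the 8 that DESeq2 called. Bcl2l12 was lower in both Mut samples, at 22.6 and 21.3 in WT and 18.7 and 17.3 in Mut (edgeR adjusted p = 0.364). The mitophagy receptors Bnip3 and Bnip3l had log2 fold changes of 0.11 and 0.03.

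All 18 membrane and tether partners were tested, 0 passed an adjusted p of 0.05 in edgeR or DESeq2, and 0 had an unadjusted p under 0.05 in edgeR. Their log2 fold changes lay between -0.19 and 0.34, with a median of 0.12. Vdac2, the channel that holds BAK in the membrane, had an RPKM of 89.9 and 105 in WT and 97.2 and 102 in Mut. Dynll1 and Dynll2, the dynein light chains that tether BIM and BMF, were at 78.4 and 122 in WT against 115 and 120 in Mut, and at 25.9 and 26.7 against 28.1 and 30.9. The log2 fold changes were 0.20 for Dynll1 (edgeR adjusted p = 0.694) and 0.12 for Dynll2 (edgeR adjusted p = 0.699). Neither tether was lower in both Mut samples.

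Of 19 genes that control the turnover, phosphorylation or transcription of members, 18 were tested and 0 passed an adjusted p of 0.05 in edgeR or DESeq2. At an unadjusted p under 0.05 in edgeR, 3 were higher (Pim1, Pim3 and Foxo1) and 1 was lower (Foxo4), named here after their values were seen, beside 9.29% and 6.28% of all genes tested. Pim1 and Pim3 encode kinases that phosphorylate BAD, with log2 fold changes of 0.60 and 0.55 (edgeR adjusted p = 0.233 and 0.262). Foxo1 had an RPKM of 4.50 and 5.68 in WT and 7.09 and 7.39 in Mut, and Foxo4 had 10.9 and 8.68 in WT and 7.22 and 7.46 in Mut. Foxo3, the FOXO factor best known for raising Bcl2l11, was at 25.7 and 18.1 in WT and at 21.8 and 22.0 in Mut, with a log2 fold change of -0.05 (edgeR adjusted p = 0.933). Huwe1, a ubiquitin ligase for MCL1, and Usp9x, its deubiquitinase, had log2 fold changes of 0.13 and 0.28 (edgeR adjusted p = 0.703 and 0.451).

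**Figure D5:**
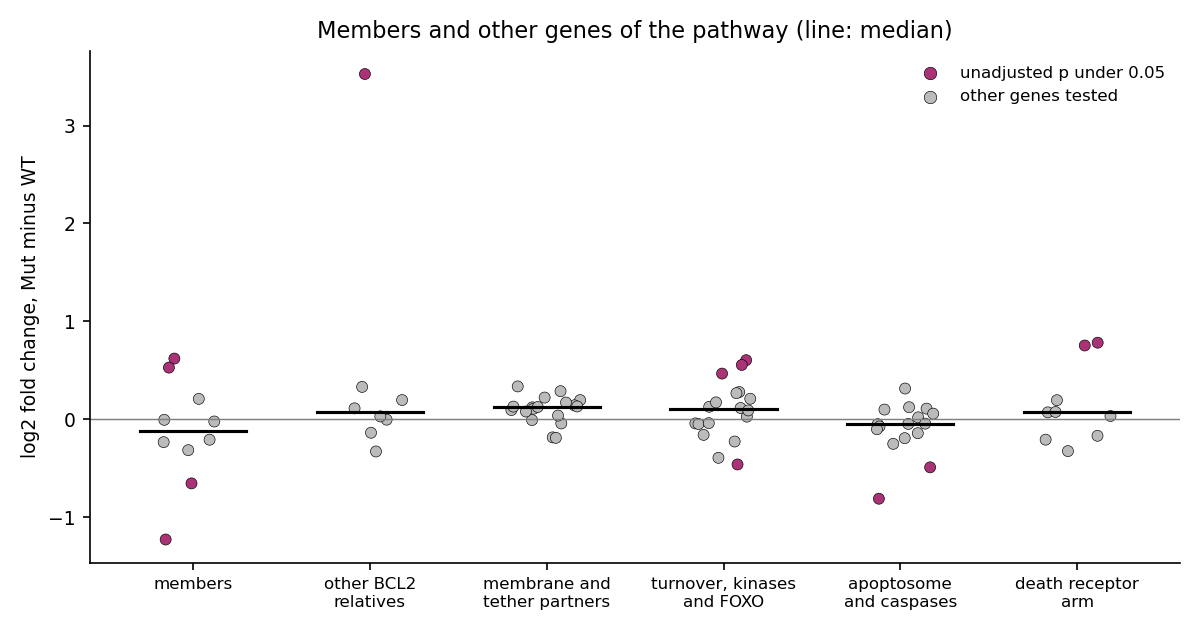
Log2 fold change of Mut minus WT for the members and for the tested genes of 5 other lists of the pathway, with the median of each as a line. Purple points had an unadjusted edgeR p under 0.05, and no gene had an adjusted p under 0.05. The highest point among the relatives is Pmaip1.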

How the data were processed

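Polyadenylated RNA of 4 chondrocyte cultures was sequenced by a service (BGI). The authors deposited a raw read count for each gene, 2.1e+07 to 3.1e+07 in all per sample. The deposited RPKM is that count divided by the listed gene length and by the reads counted in the sample, and the same values were recomputed from the counts. The deposited percent coverage is the share of the gene length covered by reads. A gene missing from a sample was set to a count of 0. The submitters' processing notes name mm9 and SAMtools, and the aligner, counting tool and annotation are not given in the sources used here.

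Counts of all 4 samples entered edgeR 4.0.16 under R 4.3.3 (quasi-likelihood test, TMM, robust fits). The 14123 genes that reached 10 counts in 2 or more samples were tested, with Benjamini-Hochberg adjustment over all of these. All 10 members passed this filter. Standard errors and 95% intervals were derived from the F statistic. The code was tested on simulated counts. The alternatives were DESeq2 1.42.0, RLE size factors, other count filters, limma 3.58.1 on log2(RPKM + 1) and log2(RPKM + 0.1), a block for replicate number, and fits without 1 sample. Replicates differed beyond sampling noise, with a chi-square per degree of freedom of 49.7 in the WT pair and 24.0 in the Mut pair, and each counted as 1 sample. The members and lists were chosen with earlier results of these data known. All 10 members were named, with 18 pathway genes fixed by role (1 of them is not reported here), Senp6, and any list gene past an adjusted p of 0.05. Promoter windows came from RefSeq on GRCm38.p6, and all 10 members were matched.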

Additional observations from a re-analysis of the deposited data

How the results depend on the processing

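The members were called past an adjusted p of 0.05 in 0 cases by edgeR on all 4 samples, in 2 by DESeq2 (Bcl2l1 and Bmf), and in 0 to 5 with 1 sample left out. Over all genes, 0 were called higher and 0 lower by edgeR, where 2199 had an unadjusted p under 0.05, against 434 and 263 by DESeq2 and 225 and 61 without a count filter. With 1 sample left out, 96 to 1331 were called higher and 47 to 1492 lower. The replicate differences of WT and of Mut had a correlation of -0.07 over all genes tested. Whether replicate numbers pair the samples is not given in the sources used here. With the replicate block 84 genes were called higher, 33 lower and 0 members. Of 110 member results under the alternatives, 95 kept direction and call, 8 newly passed and 7 turned in direction. As log2 fold changes, limma with a pseudocount of 1 or 0.1 gave 0.0176 and 0.0191 for Bcl2l2 and 0.0341 and 0.0345 for Bak1. With 1 sample left out, the values ran from -0.528 to 0.00983 for Bcl2 (turned without Mut replicate 2), from -0.0757 to 0.0185 for Bcl2l2 (turned without Mut replicate 1) and from -0.0884 to 0.0725 for Bak1 (turned without Mut replicate 2). The log2 difference of the anti-apoptotic to pro-apoptotic ratio, 0.45, was 0.41 to 0.54 under other sums and 0.31 to 0.60 with 1 sample left out, an alternative chosen after seeing the data. The cause of these differences was not tested.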

Other observations

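The steps beside and after the family were read from the same kind of list. All 16 genes of the apoptosome and the caspases were tested, and 0 passed an adjusted p of 0.05 in edgeR or DESeq2. At an unadjusted p under 0.05 in edgeR, 0 were higher and 2 were lower, Casp9 and Endog, and Endog was named after its value was seen. Over all genes tested the shares were 9.29% higher and 6.28% lower. Casp9, the initiator caspase of the apoptosome, had an RPKM of 8.76 and 7.39 in WT and 6.17 and 5.67 in Mut, with both Mut samples lower (log2 fold change -0.49, standard error 0.16, edgeR adjusted p = 0.222). Endog, a mitochondrial nuclease, had 5.16 and 3.67 in WT and 2.97 and 2.20 in Mut (log2 fold change -0.81, edgeR adjusted p = 0.293). Apaf1, the scaffold on which caspase-9 assembles, had a log2 fold change of 0.11 and the caspase inhibitor Xiap -0.07, with edgeR adjusted p values of 0.755 and 0.835.

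Of 11 genes of the death receptor arm, which acts on Bid through caspase-8, 9 were tested and 0 passed an adjusted p of 0.05 in edgeR or DESeq2. At an unadjusted p under 0.05 in edgeR, 2 were higher, Fas and Tnfsf10, named after their values were seen, and 0 were lower, beside the same shares of all genes. Fas had an RPKM of 4.96 and 5.64 in WT and 6.67 and 11.8 in Mut, with Mut replicate 2 far above the other samples (edgeR adjusted p = 0.275). Tnfsf10, the gene of the ligand TRAIL, stayed below an RPKM of 1 in each sample, at 0.404 and 0.503 in WT and 0.724 and 0.888 in Mut (edgeR adjusted p = 0.251). Casp8, which cleaves BID, was at 9.74 and 13.1 in WT and 12.0 and 12.7 in Mut, with overlapping groups and a log2 fold change of 0.07 (edgeR adjusted p = 0.875). Cflar, its inhibitor, had a log2 fold change of 0.19 (edgeR adjusted p = 0.590).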
